A study of Homo sapiens with 12 samples.

Results

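HT-29 cells treated with TNFα, SM-164, zVAD and Nec-1s together were compared with HT-29 cells treated with TNFα alone. The HT-29 line was derived from a human adenocarcinoma of the colon and is long established. All cells were collected at 8 h, and both groups received TNFα at 10 ng/ml. The TSZ+Nec-1s group also received SM-164 at 50 nM, zVAD at 20 μM and Nec-1s at 10 μM. The 2 remaining groups of the series, DMSO alone and TSZ without Nec-1s at the same doses, are given beside a result as levels. The genes described were all those with a mean of at least 10 normalized reads over both groups, 11657 of the 26485 genes listed. PolyA RNA was sequenced in 3 libraries per group, 6 of the 12 in the series. The comparison adds 3 agents at once, so the effect of SM-164, of zVAD and of Nec-1s cannot be told apart. All libraries came from a single cell line, and whether each came from its own culture is not given in the sources used here, so the p-values cover the spread among these libraries, which may be technical.

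TNFα binds its receptor TNFR1 and recruits TRAF2, the inhibitor of apoptosis proteins cIAP1 and cIAP2 and the kinase RIPK1, a complex that activates NF-κB and induces cytokines, adhesion molecules and the inhibitors of NF-κB itself. The cIAPs, encoded by BIRC2 and BIRC3, also keep the kinase NIK (MAP3K14) at a low level. SM-164 belongs to the Smac mimetics, antagonists of the IAPs, which as a class lead to loss of cIAPs and to the noncanonical NF-κB pathway, in which NIK drives processing of the NFKB2 product. zVAD blocks caspases. With TNFα and SM-164 it turns death receptor signalling to necroptosis, which runs through RIPK1, RIPK3 and MLKL, and RIPK1 kinase is the target of the inhibitor Nec-1s. The comparison therefore asks how mRNA levels differ from TNFα alone when IAPs, caspases and RIPK1 kinase are all targeted.

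Promoters of 6 genes that were higher with TSZ+Nec-1s are shown first, because known NF-κB and interferon target genes were among the rises. They were chosen because they hold a match to the motifs searched, and many rises do not. Each sequence holds the 250 bases upstream of a RefSeq start site on GRCh38.p14, read 5′ to 3′ on the gene's strand. Capitals mark matches, on either strand, to the κB motif GGGNNTTNCC or to GAAANNGAAA, the core of the interferon-stimulated response element (ISRE).

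VCAM1 (chr1:100719492-100719741, plus strand): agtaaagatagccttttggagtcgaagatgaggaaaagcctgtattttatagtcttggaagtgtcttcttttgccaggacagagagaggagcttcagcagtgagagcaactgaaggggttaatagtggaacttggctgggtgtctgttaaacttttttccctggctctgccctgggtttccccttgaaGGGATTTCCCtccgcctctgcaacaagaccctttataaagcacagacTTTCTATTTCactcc
BIRC3 (chr11:102317234-102317483, plus strand): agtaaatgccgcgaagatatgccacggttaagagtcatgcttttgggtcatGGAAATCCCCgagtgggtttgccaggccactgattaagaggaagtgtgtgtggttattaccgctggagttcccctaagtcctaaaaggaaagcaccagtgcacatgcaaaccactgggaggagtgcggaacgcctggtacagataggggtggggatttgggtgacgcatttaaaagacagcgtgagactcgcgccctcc
CCL20 (chr2:227813592-227813841, plus strand): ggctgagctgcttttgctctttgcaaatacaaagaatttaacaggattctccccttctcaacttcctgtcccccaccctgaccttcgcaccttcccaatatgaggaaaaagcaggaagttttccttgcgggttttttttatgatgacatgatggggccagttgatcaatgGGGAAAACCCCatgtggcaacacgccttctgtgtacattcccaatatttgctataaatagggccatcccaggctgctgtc
CXCL10 (chr4:76023498-76023747, minus strand): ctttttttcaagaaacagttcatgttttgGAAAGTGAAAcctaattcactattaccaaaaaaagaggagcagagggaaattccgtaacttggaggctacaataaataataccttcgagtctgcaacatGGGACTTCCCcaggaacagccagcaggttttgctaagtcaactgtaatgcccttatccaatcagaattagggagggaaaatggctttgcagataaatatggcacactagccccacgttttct
TNFAIP3 (chr6:137867009-137867258, plus strand): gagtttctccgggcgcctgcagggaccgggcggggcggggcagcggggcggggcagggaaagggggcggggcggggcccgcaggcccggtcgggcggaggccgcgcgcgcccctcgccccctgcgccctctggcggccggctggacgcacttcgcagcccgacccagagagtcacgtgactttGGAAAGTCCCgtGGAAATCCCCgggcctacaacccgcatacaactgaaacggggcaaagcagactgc
IFIH1 (chr2:162318685-162318934, minus strand): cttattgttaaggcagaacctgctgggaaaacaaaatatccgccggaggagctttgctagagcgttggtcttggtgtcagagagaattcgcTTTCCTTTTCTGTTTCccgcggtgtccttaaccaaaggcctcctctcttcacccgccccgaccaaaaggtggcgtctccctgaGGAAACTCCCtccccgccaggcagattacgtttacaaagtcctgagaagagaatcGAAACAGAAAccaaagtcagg

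VCAM1 and CXCL10 each hold a κB match and an ISRE match. In CCL20 a pair of κB matches overlaps by all but 1 base, in TNFAIP3 there are 2 separate κB matches, and IFIH1 has a κB match, an overlapping pair of ISRE matches and a separate ISRE match. Over all 35116 RefSeq promoters, 5.07% hold the κB motif and 3.02% the ISRE core upstream of the start. By gene, 21 of the 96 higher genes with a RefSeq promoter had a κB match (21.9%) and 10 an ISRE match (10.4%), beside 8.16% and 3.18% of the 8836 tested genes with a promoter. Of 23 lower genes with a promoter, 1 had a κB match and 0 an ISRE match. Of the 20 largest rises 16 had a promoter, and 6 of these held a κB match and 4 an ISRE match. These are letter matches in a fixed window and were not tested.

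The deposited tables hold group means of scaled counts, and whole reads per library were solved from them. Levels are given as normalized reads, whole reads divided by the library's size factor. Fold changes are on the log2(normalized reads + 0.5) scale, which understates changes of low genes, and intervals are 95% intervals from limma. Library totals were estimated at 9966969 to 10531736 reads with TNFα and 9943115 to 12729707 with TSZ+Nec-1s. Letters a, b and c name the libraries of each group and pair nothing between groups. Reads were solved in all 12 libraries for 11633 of the 11657 genes, which were tested. The 24 others include ACTB, GAPDH, KRT8, KRT18 and CXCL8. Of 12 markers of colon epithelium, 10 had a mean of at least 10, and the summed level of the 12 was 152442 with TNFα and 146160 with TSZ+Nec-1s. The intestinal transcription factors CDX1 and CDX2 were below it, with means of 0.334 and 6.77 with TNFα. Of 6 leukocyte markers, 3 had no reads in either group, among them the defining markers PTPRC and CD3E, and 3 had a mean of at least 10: LYZ (15016 and 15309), ITGAM (134 and 218) and CD14 (49.4 and 30.6). Their summed level was 15199 with TNFα and 15558 with TSZ+Nec-1s, nearly all of it LYZ, and the part of such cells in the results was not tested. In RNA of a whole culture, fewer expressing cells and less mRNA per cell cannot be told apart.

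With TSZ+Nec-1s, 127 of 11633 genes were higher than with TNFα (1.09%) and 28 were lower (0.241%), at an adjusted p under 0.05 in limma over all 12 libraries with Benjamini-Hochberg adjustment. The higher genes were led by genes of the TNFα and NF-κB response: the adaptor TRAF1, the IAP gene BIRC3, the chemokines CCL20 and CXCL10, and the adhesion molecules VCAM1 and ICAM1. The lower genes were led by the xenobiotic-metabolizing enzyme CYP1B1, the ligand WNT11 and the hyaluronan-degrading protein CEMIP. Rises ran from 0.32 to 5.20 on the log2 scale (median 0.92), and 57 were at least 1. The largest was VCAM1, at 2 reads against 129. VCAM1 was among 7 called genes that met the minimum mean only through TSZ+Nec-1s, and the rises of these genes are a description. Falls ran from -0.41 to -1.30 (median -0.67), and 3 passed -1. The median over all genes tested was -0.03, and 5391 of the 11633 lay above 0, the background for the counts above 0 in the lists below. In all 155 called genes the 3 libraries of one group lay apart from the 3 of the other, as they did in 43.6% of all genes tested.

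**Figure D1:**
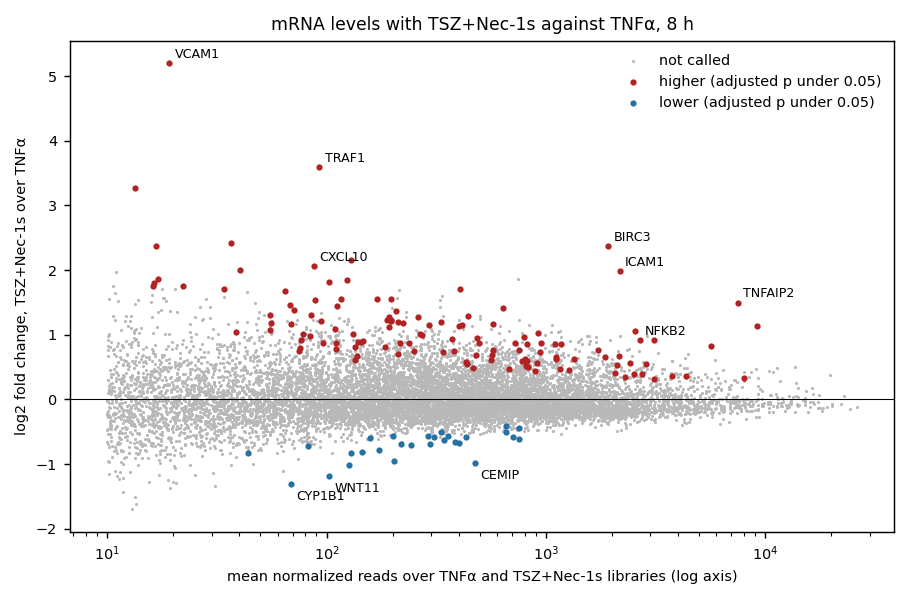
Log2 fold change of TSZ+Nec-1s over TNFα (vertical axis) against the mean of normalized reads over both groups (horizontal, log axis) for the 11633 genes tested. Red points are the 127 higher genes and blue points the 28 lower genes; VCAM1 and TRAF1 lie highest among the labelled genes, and the falls reach -1.30 (CYP1B1).

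The number of called genes moved with the libraries that set the spread. The median standard deviation of log2 values was 0.144 in TNFα and 0.0893 in TSZ+Nec-1s, but 0.261 in DMSO and 0.204 in TSZ. When the spread came from the 6 libraries of both groups alone, 1999 of 11648 genes were higher (17.2%) and 1157 were lower (9.93%), and all 155 genes above were among them. Leaving out any of the 6 libraries left 47 to 62 higher and 2 to 4 lower genes in the fit over the remaining 11, and 46 higher and 2 lower genes passed all 6 of these fits. A further 52 higher and 23 lower genes passed none of them. Scaling to total reads gave 128 higher and 62 lower genes, a share of higher calls of 67.4% against 81.9%.

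Fold changes also moved with base composition. Across 11437 genes with a transcript in the annotation, log2 fold change and transcript GC content had a Spearman's rho of -0.61, given as a description because the genes share libraries. With the genes cut by GC content into 5 bins of equal size, the median log2 fold change was 0.38 in the lowest bin (31.0% to 42.2%) and -0.16 in the highest (58.7% to 76.0%). In the fit over 6 libraries 53.3% of the lowest bin were called higher against 3.41% of the highest. In the fit over 12 libraries the corresponding shares were 1.31% and 0.874%. Within the TNFα group, deviations of single libraries from their mean followed GC content with a rho of -0.598 in library a, 0.469 in b and 0.219 in c. Within TSZ+Nec-1s the values were nearer 0, at -0.129, 0.227 and -0.102. With the GC trend removed, 296 genes were higher (2.54%) and 201 lower (1.73%), and these held 109 of the 127 rises and all 28 falls. The part of base composition in single results was not tested beyond this fit, and listed genes that lost their call in it are named below (GBP2, RIPK2, CTSS, DNAJA1 and KRT20).

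**Figure D2:**
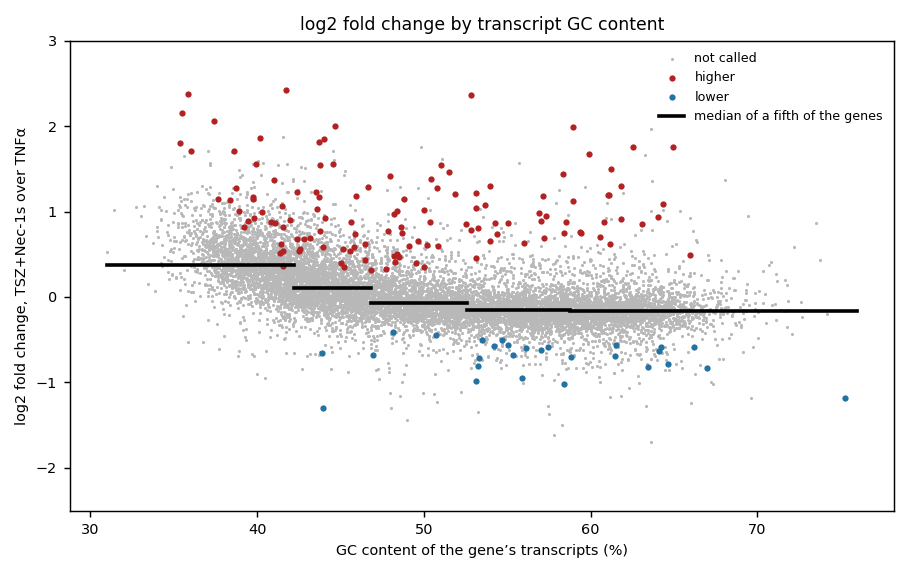
Log2 fold change of TSZ+Nec-1s over TNFα against the GC content of each gene's transcripts (percent). Grey points were not called, red points were higher and blue points lower; black bars are medians of 5 bins of equal gene number, from 0.38 at the lowest to -0.16 at the highest GC content. TRAF1, VCAM1 and ICAM4 lie above the axis.

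Genes of IAPs, TRAFs and the noncanonical NF-κB pathway held the largest rise among the well-counted genes, TRAF1. Of 18 tested members of a list of IAPs, TRAFs and noncanonical NF-κB genes, 4 were higher (TRAF1, BIRC3, NFKB2 and MAP3K14) and 0 lower, and the median log2 fold change was 0.19. TRAF1, an adaptor that joins TRAF2 and the cIAPs at TNF receptors (GRCh38, chr9:120902393-120929173, minus strand), had 15.9, 12.5 and 13.0 normalized reads in the TNFα libraries and 176, 169 and 168 with TSZ+Nec-1s. The groups were far apart, and the log2 fold change was 3.59 ± 0.20 SE, with an adjusted p of 1.33e-06. BIRC3, which encodes cIAP2, had 732, 568 and 580.5 with TNFα and 3339, 3127 and 3210.2 with TSZ+Nec-1s. Its log2 fold change was 2.37 ± 0.24 SE (adjusted p = 0.000422), and its DMSO mean was 80.1. With the GC trend removed the log2 fold change of BIRC3 was 1.69. NFKB2, the precursor of the noncanonical NF-κB subunit, had 1729.5, 1961 and 1891 and 3626, 3359 and 3523, a log2 fold change of 0.91 ± 0.11 SE (adjusted p = 0.000829). MAP3K14 (NIK) rose from 267, 292 and 297 to 466, 501 and 475, a log2 fold change of 0.75 ± 0.13 SE (adjusted p = 0.0142). The mean of MAP3K14 was 306 in DMSO and 296 in TSZ, next to 285 with TNFα, so TSZ+Nec-1s had the highest mean of the 4 groups. Its call was lost whichever of the 6 libraries was left out.

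BIRC2, which encodes cIAP1, had 368, 271 and 260.2 reads with TNFα and 759.9, 657 and 702 with TSZ+Nec-1s. The libraries did not overlap, and the log2 fold change of 1.25 (95% interval 0.54 to 1.96) missed the threshold over 12 libraries (adjusted p = 0.0961). The adjusted p was 3.02e-06 over 6 libraries and 0.0104 with the GC trend removed. BIRC2 varied in TSZ, at 1183, 585 and 586. XIAP, the IAP that binds caspases directly, had 489.6, 410.0 and 474 and 575, 561 and 560.3, a difference of 0.31 (-0.07 to 0.68; adjusted p = 0.337). For TRAF2 and TRAF3, which link the cIAPs to NIK, the differences were 0.02 (-0.30 to 0.35) and -0.06 (-0.27 to 0.15).

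Some NF-κB subunits and inhibitors were also higher, each by less than 1 on the log2 scale. All 20 members of this list were tested. Of these, 4 were higher (TNFAIP3, NFKB2, BCL3 and NFKB1), 0 were lower, 17 lay above 0 and the median was 0.37. TNFAIP3, the ubiquitin-editing enzyme A20 that ends TNFα signalling, had 556, 497 and 555 reads with TNFα and 1053, 1036 and 1056 with TSZ+Nec-1s. Its log2 fold change was 0.97 ± 0.10 SE (adjusted p = 0.000422), with no overlap between groups. BCL3, a nuclear IκB protein, had 376, 396 and 392 and 556, 561 and 513 (0.49 ± 0.10 SE, adjusted p = 0.0439). NFKB1 was close to the threshold, with 1666, 1819 and 1876 and 2377, 2330.2 and 2380.2 (0.40 ± 0.09 SE, adjusted p = 0.0498). The classical inhibitor NFKBIA did not pass, at 1393, 1477 and 1417 against 1694, 1742 and 1508, a difference of 0.20 (-0.03 to 0.44; adjusted p = 0.323). For NFKBIE, another IκB, the difference was 0.56 (adjusted p = 0.0521). RELB, the partner of the processed NFKB2 product, differed by 0.33 (-0.02 to 0.68; adjusted p = 0.297), and RELA by 0.05 (-0.23 to 0.33). Over 6 libraries 13 of the 20 were higher, beside 17.2% of all genes. BCL3 and NFKB1 lost their call whichever library was left out.

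**Figure D3:**
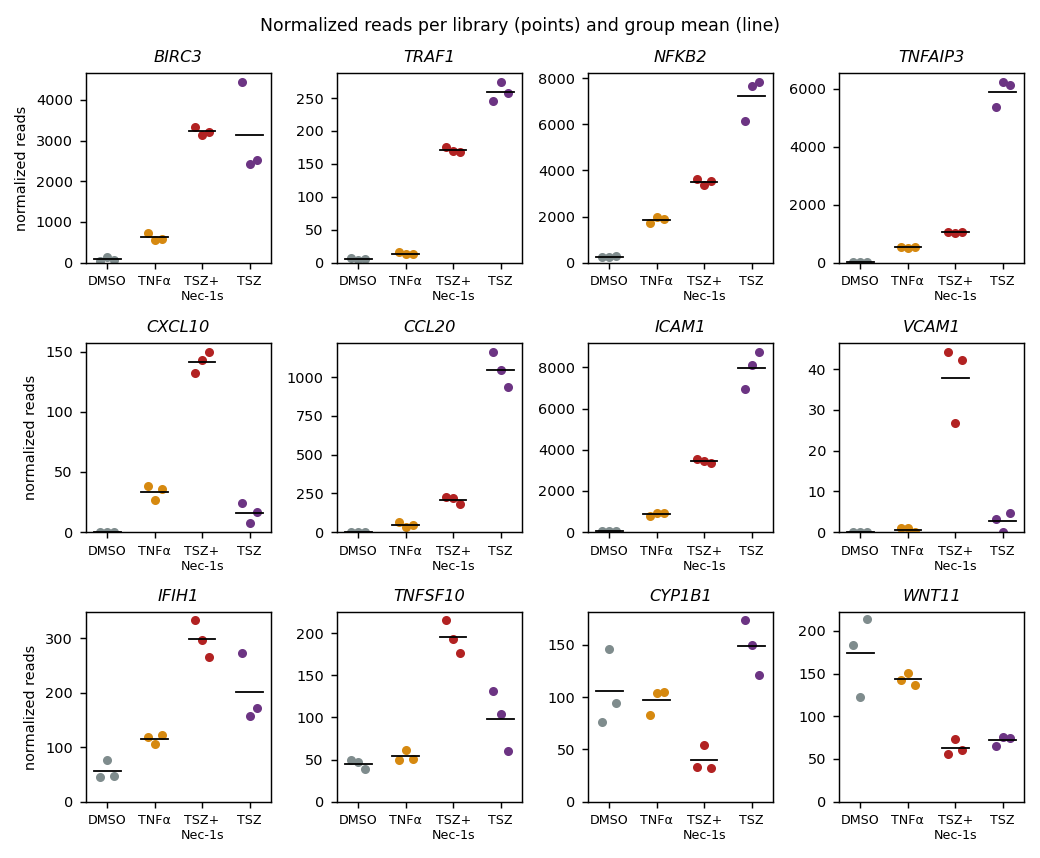
Normalized reads (vertical axis, from 0) of 12 named genes in each library of the DMSO, TNFα, TSZ+Nec-1s and TSZ groups; points are libraries (3 per group) and lines are group means. For BIRC3, TRAF1, ICAM1 and CXCL10 every TSZ+Nec-1s library lies above every TNFα library, and for CYP1B1 and WNT11 below. CXCL10, VCAM1, TNFSF10, IFIH1 and BIRC3 have their highest means in TSZ+Nec-1s, for BIRC3 at 3225 against 3129 in TSZ.

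Most of the tested chemokine genes were higher with TSZ+Nec-1s. Of 19 listed chemokines 11 were tested and 7 were higher, with 0 lower and a median log2 fold change of 1.30. CCL20, which attracts CCR6-bearing lymphocytes and dendritic cells, had 62.6, 35.6 and 45.0 normalized reads with TNFα and 228, 218 and 184 with TSZ+Nec-1s (2.16 ± 0.23 SE, adjusted p = 0.000438). CXCL10, an interferon-inducible ligand of CXCR3, had 38.3, 26.9 and 36.0 and 132, 143 and 149.9 (2.06 ± 0.23 SE, adjusted p = 0.000501). In neither gene did the groups overlap, and with the GC trend removed the log2 fold changes were 1.46 for CCL20 and 1.48 for CXCL10. CX3CL1, a membrane-bound chemokine, had 32.7, 42.3 and 20.0 and 102, 102 and 89.5 (1.67 ± 0.23 SE, adjusted p = 0.00238). CCL22, a ligand of CCR4, rested on few reads, 18 in all in TNFα and 95 in TSZ+Nec-1s. The ratio of these reads, scaled for depth, was 4.81 (exact Clopper-Pearson 95% interval 2.89 to 8.46, counting error only), and its adjusted p was 0.0158. CCL22 met the minimum mean only through TSZ+Nec-1s, so its place among the 7 called chemokines is a description, and it was called in 2 of the 6 fits that left out a library.

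The neutrophil-attracting chemokines CXCL1, CXCL2 and CXCL3 were all higher. CXCL2 had 40.2, 49.1 and 59.1 with TNFα and 115, 135 and 114 with TSZ+Nec-1s (1.30 ± 0.18 SE, adjusted p = 0.00279), and CXCL3 changed by 1.27 (adjusted p = 0.0053). CXCL1 had 571, 672 and 654 and 999.5, 969 and 901 (0.60 ± 0.09 SE, adjusted p = 0.00594). These 3 genes are close paralogs, so reads shared between them may be split or lost in counting. CXCL8 (interleukin 8) was not solved in all 12 libraries and was tested only over the 6 libraries of both groups. It had 3369, 2995 and 2958 and 4074, 4018 and 4070.3, a log2 fold change of 0.39 ± 0.06 (SE), with an adjusted p of 0.00054. CXCL8 had the most normalized reads of the chemokines named here, and its libraries did not overlap. CXCL11, another CXCR3 ligand, did not pass over 12 libraries (7.47, 9.62 and 11.0 against 38.0, 26.9 and 29.2, adjusted p = 0.0773). CXCL11 met the minimum mean only through TSZ+Nec-1s, so its levels are a description. CXCL16 differed by 0.00 (-0.24 to 0.24).

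Among other cytokines and growth factors, 6 of 21 tested members were higher and 0 lower, with a median of 0.26. TNFSF10, the death ligand TRAIL, had 49.5, 61.6 and 51.0 normalized reads with TNFα and 216, 193 and 176 with TSZ+Nec-1s (1.85 ± 0.23 SE, adjusted p = 0.00139). TNFα libraries lay near the DMSO mean of 45.1, and the TSZ+Nec-1s libraries lay well above both. CSF1, the macrophage growth factor, had 67.3, 52.9 and 61.1 and 185, 151 and 156 (1.44 ± 0.18 SE, adjusted p = 0.00139). IL23A, a subunit of interleukin 23, had 33.6, 57.7 and 46.0 and 118, 144 and 134 (1.54 ± 0.29 SE, adjusted p = 0.0226). The others were IL15, TNFSF15 and PDGFB, with log2 fold changes of 1.71, 1.23 and 0.87, or 1.21, 0.95 and 0.99 with the GC trend removed. The calls of IL23A, IL15 and PDGFB were lost whichever library was left out.

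TNF itself and CSF2 did not pass the test. TNF had 34.6, 46.2 and 62.1 with TNFα and 67.2, 75.5 and 83.5 with TSZ+Nec-1s, without overlap, a difference of 0.69 (0.14 to 1.25; adjusted p = 0.219). CSF2, which encodes GM-CSF, had 11.2, 23.1 and 11.0 and 39.5, 35.6 and 23.1, a difference of 1.16 (0.21 to 2.12; adjusted p = 0.228). The interval of either gene includes a 2-fold change. Over the 6 libraries the adjusted p was 0.0248 for TNF and 0.0172 for CSF2.

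Several genes of leukocyte adhesion and of the matrix were higher. Of 18 tested members of the list of leukocyte adhesion, matrix and proteolysis, 7 were higher and 0 lower, and the median was 0.64, or 0.41 with the GC trend removed. VCAM1, a ligand for leukocyte integrins whose promoter holds a κB and an ISRE match, had 0.934, 0.962 and 0 normalized reads with TNFα and 44.3, 26.9 and 42.3 with TSZ+Nec-1s. These are 2 reads against 129, a ratio of 58.8 scaled for depth (exact 95% interval 15.9 to 491, counting error only; adjusted p = 0.000944). VCAM1 met the minimum mean only through the TSZ+Nec-1s group, as did 7 of the 155 called genes in all, so its call and the size of its change are a description. ICAM1, the ligand of the integrin LFA-1 (GRCh38, chr19:10271093-10286615, plus strand), was far more abundant, at 804, 917 and 909.8 with TNFα and 3543, 3475 and 3378 with TSZ+Nec-1s. Its log2 fold change was 1.99 ± 0.10 SE, with an adjusted p of 8.56e-07. PLAU (urokinase), an activator of plasminogen, rose by 1.30 ± 0.26 SE (adjusted p = 0.0292), a call lost whichever library was left out. MMP7, a matrix metalloprotease of epithelia, had 4306, 4013 and 3944 and 7219.8, 7221 and 7239 (0.82 ± 0.09 SE, adjusted p = 0.000462). The log2 fold change of MMP7 was 0.49 with the GC trend removed. The laminin chain LAMA3 rose by 0.62 ± 0.09 SE (adjusted p = 0.00368). The integrin genes ITGA2, ITGB6 and ITGAV did not pass, with differences of 0.62, 0.71 and 0.86 and adjusted p of 0.124, 0.132 and 0.224.

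Several interferon-stimulated genes were higher. Of 36 tested members 6 were higher and 0 lower, 29 lay above 0 and the median was 0.36. The RNA sensors DDX58 (RIG-I) and IFIH1 (MDA5) were both higher. DDX58 had 121, 78.9 and 102 reads with TNFα and 302, 296 and 279 with TSZ+Nec-1s (1.56 ± 0.16 SE, adjusted p = 0.000422). IFIH1 had 119, 106 and 122 and 334, 297 and 267 (1.37 ± 0.21 SE, adjusted p = 0.00458). The libraries of the groups did not overlap in either gene, and the IFIH1 promoter is among those printed. DDX58 and IFIH1 changed by 1.13 and 1.01 with the GC trend removed. SAMD9, an antiviral protein, was uneven in the TNFα libraries (282, 143 and 164 against 657, 589 and 607) and close to the threshold (1.71 ± 0.38 SE, adjusted p = 0.0498), with a log2 fold change of 1.04 once the GC trend was removed. The transcription factor IRF1 had 825, 889 and 915 and 1326, 1429 and 1307 (0.63 ± 0.11 SE, adjusted p = 0.0151). PARP14 and GBP2 changed by 0.67 and 0.68; with the GC trend removed GBP2 was not called (adjusted p = 0.198). SAMD9, IRF1 and GBP2 lost their call whichever library was left out.

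IFIT2, OASL, DHX58, GBP1 and IFIT3, further genes of this list, had differences of 0.98, 0.82, 0.95, 0.94 and 0.65, with adjusted p between 0.0505 and 0.0837. Over 6 libraries 17 of the 36 were higher and 1 was lower, beside 17.2% and 9.93% of all genes. UBD, a ubiquitin-like modifier induced by TNFα and interferon γ and in the set of largest changes, had 31.8, 51.0 and 56.0 and 157, 146 and 177 (1.82 ± 0.20 SE, adjusted p = 0.000454). Outside the rule for named genes and chosen after their values were seen, the interferon receptor genes IFNGR1, IFNGR2 and IFNAR2 were also higher, by 0.92, 0.88 and 0.88. These changes were 0.48, 0.90 and 0.75 with the GC trend removed. IFNGR1 was called in 1 of the 6 fits that left out a library, and IFNGR2 and IFNAR2 in all 6.

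In MHC class I antigen presentation, 1 of 16 tested members was higher, the peptide transporter gene TAP1, and 0 were lower. Of the 16, 15 lay above 0, beside 5391 of all 11633 genes tested, and the median was 0.25. TAP1 had 354, 384 and 366 with TNFα and 642, 574 and 562 with TSZ+Nec-1s (0.69 ± 0.12 SE, adjusted p = 0.0121), a call kept in 1 of the 6 fits that left out a library. B2M, the invariant light chain of class I molecules, differed by 0.30 (0.09 to 0.52; adjusted p = 0.189).

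**Figure D4:**
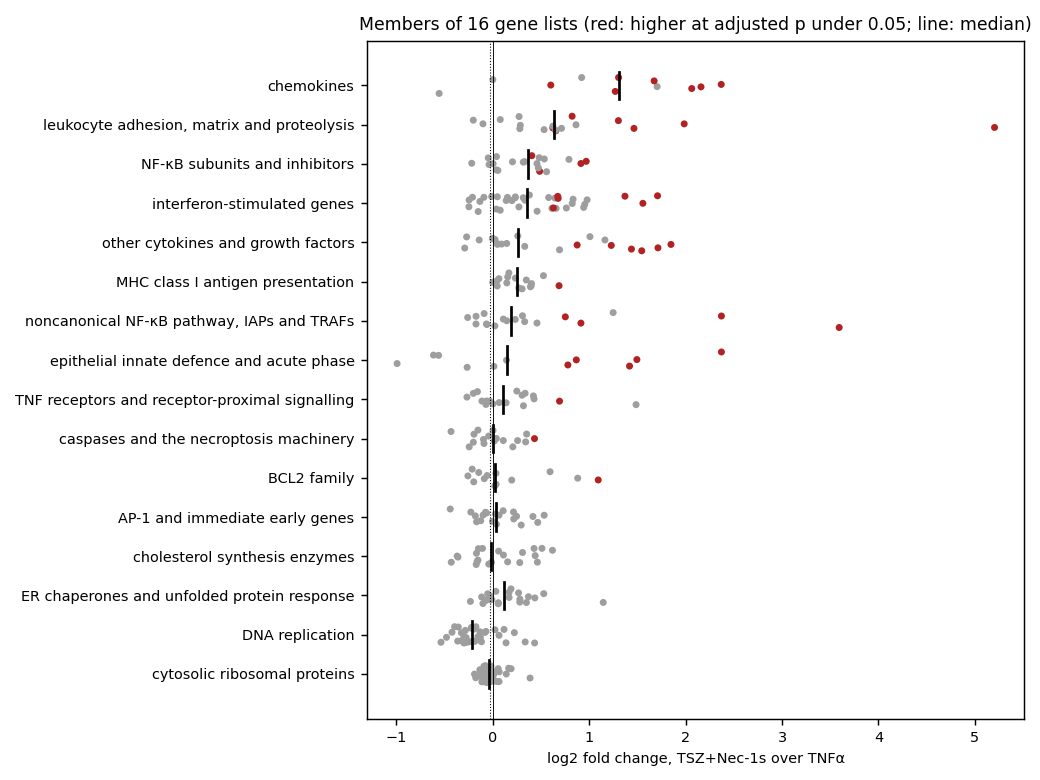
Log2 fold change of TSZ+Nec-1s over TNFα (horizontal axis) for the tested members of 16 gene lists (rows). Red points were higher at an adjusted p under 0.05, grey points were not called, black bars are list medians and the dotted line is the median of all genes (-0.03); chemokines have the highest median (1.30), and no member of these 16 lists was lower.

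Lists of cell death and receptor-complex genes each held 1 called gene, beside 1.09% higher and 0.241% lower over all genes tested. Over 6 libraries 4 of the 17 caspase and necroptosis genes were higher and 1 lower, beside 17.2% and 9.93% of all genes. Of 17 tested caspase and necroptosis genes 1 was higher, CFLAR, and 0 were lower, with a median of 0.00. CFLAR encodes cFLIP, an inhibitor of caspase-8, and had 804, 729 and 741 with TNFα and 1067, 995 and 1006 with TSZ+Nec-1s (0.43 ± 0.08 SE, adjusted p = 0.0264). This call was lost whichever of the 6 libraries was left out. The mRNA of RIPK1, the kinase that Nec-1s inhibits, had 537, 589.9 and 589 and 458, 521 and 516, a difference of -0.20 (-0.44 to 0.04; adjusted p = 0.33). RIPK3 differed by -0.20 (-0.56 to 0.17) and MLKL by -0.10 (-0.36 to 0.17). CASP8, which encodes a caspase that zVAD blocks, differed by 0.11 (-0.13 to 0.34). A fall of RIPK1 mRNA by more than 0.44 and a rise of CASP8 mRNA by more than 0.34 on the log2 scale lie outside these intervals.

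Among TNF receptors and receptor-proximal genes, 1 of 18 was higher, RIPK2, the kinase of NOD signalling (427, 479 and 401 against 665, 708 and 740.4; 0.69 ± 0.10 SE, adjusted p = 0.00482). With the GC trend removed its adjusted p was 0.0591. Over 6 libraries 7 of the 18 were higher and 0 lower, and in the BCL2 family 3 of 13 were higher and 2 lower. Of all genes 17.2% were higher and 9.93% lower in that fit. The death receptor gene FAS had 32.7, 23.1 and 18.0 and 90.9, 71.2 and 46.3 without overlap, a difference of 1.49 (0.55 to 2.42; adjusted p = 0.139). In the BCL2 family 1 of 13 was higher, the BH3-only gene BBC3 (PUMA), with 68.2, 77.0 and 64.1 and 164, 149 and 134 (1.09 ± 0.20 SE, adjusted p = 0.0176), called in 1 of the 6 fits without a library. MCL1, an antiapoptotic member, differed by 0.59 (0.25 to 0.94; adjusted p = 0.1).

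Genes of epithelial defence ranged widely. Of 11 tested members 5 were higher and 0 lower, and the median was 0.14. The higher genes were BIRC3, TNFAIP2, SOD2, PI3 and CFB. TNFAIP2, a TNFα-inducible gene of membrane protrusions, had 3733, 4001 and 4094 with TNFα and 11175, 11353 and 10768 with TSZ+Nec-1s (1.49 ± 0.12 SE, adjusted p = 3.07e-05). SOD2, the mitochondrial superoxide dismutase, had 334, 328 and 377 and 992, 869 and 913 (1.42 ± 0.09 SE, adjusted p = 7.28e-06). PI3 (elafin) and CFB (complement factor B) changed by 0.87 and 0.78, calls kept in 0 and 1 of the 6 fits without a library. LCN2, SLPI, PIGR and REG4 had differences of -0.27, -0.62, -0.56 and -0.99 and did not pass.

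A few lists held a single change, beside 1.09% of all genes tested that were higher. CDKN1A, the p21 inhibitor of cell division and a p53 target, had 417, 427 and 433 with TNFα and 719.6, 695 and 761 with TSZ+Nec-1s (0.77 ± 0.13 SE, adjusted p = 0.0121); 1 of 16 p53 targets was higher. GCLC, the catalytic subunit of glutathione synthesis, rose by 0.77 ± 0.13 SE and was 1 of 21 NRF2 targets. DDIT4, an mTOR inhibitor of the ATF4 list, changed by 0.75. The lysosomal protease gene CTSS changed by 0.87, the chaperone DNAJA1 by 0.36 and the epithelial keratin KRT20 by 0.40. With the GC trend removed CTSS, DNAJA1 and KRT20 were not called (adjusted p of 0.203, 0.93 and 0.109). CDKN1A kept its call in 1 of the 6 fits without a library, and GCLC, DDIT4, CTSS, DNAJA1 and KRT20 in 0. Further genes among the 20 largest rises were the phosphodiesterase PDE4D (1.55), the nuclear receptor coregulator PNRC1 (1.55) and the cytokine receptor chain IL2RG (1.38), of which PNRC1 and IL2RG were called in 0 of those fits.

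**Figure D5:**
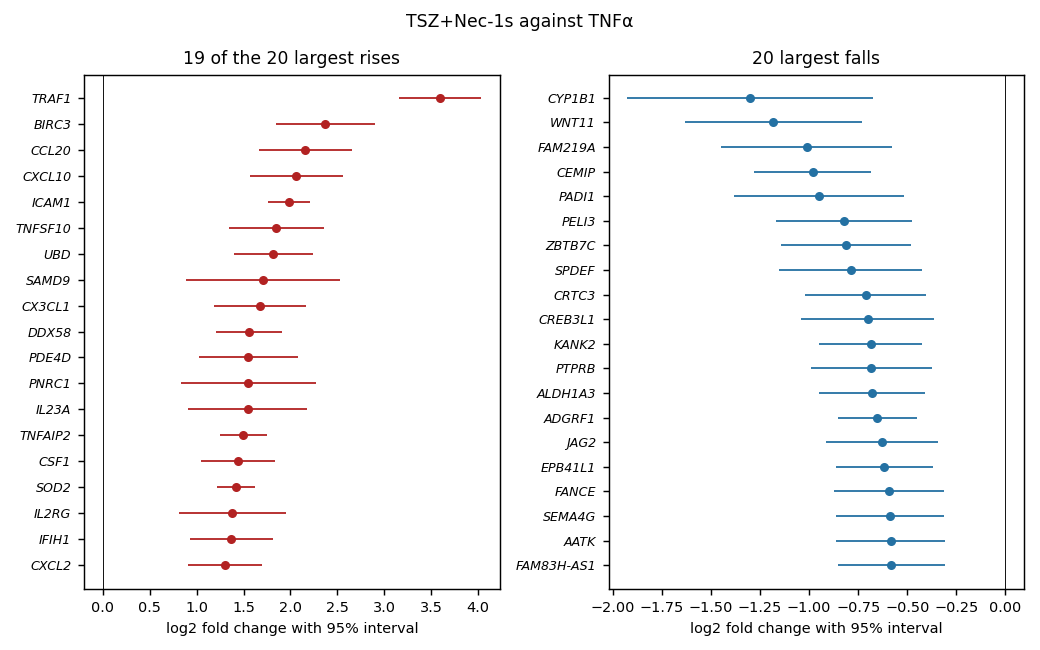
Log2 fold changes of TSZ+Nec-1s over TNFα with 95% intervals from limma for 19 of the 20 largest rises (left, red) and the 20 largest falls (right, blue) among called genes with a mean of at least 50 whose libraries did not overlap. TRAF1 stands apart from the other rises at 3.59, and the falls lie between -1.30 and -0.58.

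Of the 28 lower genes the lists held 1, CYP1B1, a target of the aryl hydrocarbon receptor, which had 83.2, 104 and 105 normalized reads with TNFα and 33.2, 54.7 and 32.2 with TSZ+Nec-1s (-1.30 ± 0.29 SE, adjusted p = 0.0487). CYP1A1, another target of this receptor, had 12.1, 4.81 and 11.0 and 18.2, 14.8 and 23.1 (1.03, adjusted p = 0.226), not past the threshold. CYP1A1 met the minimum mean only through TSZ+Nec-1s, so its levels are a description. WNT11, a secreted WNT ligand, had 142, 151 and 136 and 56.1, 72.9 and 60.4 (-1.18 ± 0.21 SE, adjusted p = 0.0142). CEMIP had 602, 630.3 and 666 and 317, 319 and 322 (-0.98 ± 0.14 SE, adjusted p = 0.00283). For CYP1B1, WNT11 and CEMIP every TSZ+Nec-1s library lay below every TNFα library. CEMIP and the adhesion receptor gene ADGRF1 (489.6, 463 and 456 against 287, 292 and 319.9; -0.65 ± 0.09 SE, adjusted p = 0.00307) were the 2 falls that passed with each library left out in turn. WNT11 passed in 2 of these 6 fits and CYP1B1 in 0.

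Among the other large falls were PADI1, a peptidyl arginine deiminase (-0.95), SPDEF, an ETS factor of goblet cell differentiation (-0.79), the Notch ligand JAG2 (-0.63), the retinoic acid-forming enzyme ALDH1A3 (-0.68), the receptor phosphatase PTPRB (-0.68) and PELI3, an E3 ligase of interleukin 1 signalling (-0.82). The rest of the 20 were FAM219A, ZBTB7C, CRTC3, CREB3L1, KANK2, EPB41L1, FANCE, SEMA4G, AATK and FAM83H-AS1, between -1.01 and -0.58. All the falls named in this paragraph had an adjusted p between 0.0142 and 0.0498 in limma over 12 libraries. PTPRB and KANK2 were called in 1 of the 6 fits that left out a library, and the others in 0. FAM83H-AS1 is antisense by name, but the annotation entry matched to its symbol, directly or by an older symbol, is protein-coding. The counting did not use strand, and how far this touched its reads was not tested. The median GC content of the falls was 56.0%, that of the rises 48.2% and that of all genes 49.6%.

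Several lists had no called member in limma over 12 libraries. Over all genes tested, 9.9% were higher and 7.86% lower at an unadjusted p under 0.05, the background for the unadjusted counts below. In the fit over 6 libraries 17.2% of all genes were higher and 9.93% lower, the background for the counts over 6 libraries. Of 35 listed DNA replication genes 0 passed, 28 lay below 0, the median was -0.22, and 14 were lower and 0 higher at an unadjusted p under 0.05. ORC1, a subunit of the origin recognition complex outside that list and chosen after its values were seen, was among the 28 called falls (-0.44 ± 0.10 SE, adjusted p = 0.0456). E2F1, a transcription factor of S phase genes, had 1353, 1457 and 1372 with TNFα and 954, 980.2 and 947 with TSZ+Nec-1s, a difference of -0.54 (adjusted p = 0.0902). Over 6 libraries 16 replication genes were lower and 1 higher, and with the GC trend removed 6 were lower. Of 20 AP-1 and immediate early genes 0 passed in either direction (median 0.03; 4 higher and 1 lower unadjusted; 2 and 2 over 6 libraries). For 21 cholesterol synthesis enzymes the median was -0.01, with 3 higher and 2 lower unadjusted and 6 and 4 over 6 libraries. For 22 chaperones and genes of the unfolded protein response it was 0.11, with 6 higher and 0 lower unadjusted and 8 and 0 over 6 libraries. Among 49 cytosolic ribosomal protein genes the median was -0.04, with 1 higher and 0 lower unadjusted and 1 and 0 over 6 libraries.

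The levels of the named genes in the other groups are given side by side, since every comparison with TSZ+Nec-1s or TNFα shares its libraries with the one above. For CXCL10 the means were 0 in DMSO, 33.8 with TNFα, 142 with TSZ+Nec-1s and 16.3 with TSZ. The TSZ libraries had 24.4, 7.90 and 16.7, below every TSZ+Nec-1s library (TSZ over TSZ+Nec-1s -3.21, adjusted p = 2.29e-06). VCAM1 had 3.33, 0 and 4.76 normalized reads in TSZ, a log2 difference of -4.12 from TSZ+Nec-1s. VCAM1 met the minimum mean only through TSZ+Nec-1s, so this difference is a description. UBD, TNFSF10 and DDX58 were likewise lower with TSZ, at means of 52.5, 98.5 and 145 against 160.1, 195 and 292 with TSZ+Nec-1s, with log2 differences of -1.60, -1.04 and -1.02 (adjusted p = 3.65e-05, 0.0019 and 0.000215). MAP3K14 and TNFAIP2 were also lower with TSZ, with differences of -0.70 and -0.58 (adjusted p = 0.00119 and 0.00132).

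Other genes were higher again with TSZ. CCL20 had a mean of 209.9 with TSZ+Nec-1s and 1046 with TSZ, CSF1 164 and 1357, SOD2 925 and 5770.1, and TNFAIP3 1048 and 5912. The log2 differences were 2.31, 3.04, 2.64 and 2.49 (adjusted p = 1.13e-07, 2.14e-09, 1.7e-10 and 5.1e-10). BIRC3 did not pass between these groups, at 3339, 3127 and 3210.2 with TSZ+Nec-1s and 4436, 2423 and 2527 with TSZ (-0.10, adjusted p = 0.747), and MMP7 did not either (-0.01, adjusted p = 0.95). CYP1B1, CEMIP and PADI1, lower with TSZ+Nec-1s than with TNFα, had means of 149, 954 and 722 with TSZ, above all 3 other groups. WNT11 and ADGRF1 had 72.0 and 288, beside 63.1 and 299.6 with TSZ+Nec-1s (differences of 0.19 and -0.05, adjusted p = 0.53 and 0.702).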

How the data were processed

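PolyA RNA of HT-29 cells was sequenced in 12 libraries, 3 in each of 4 groups. The submitters' processing notes name STAR, HTSeq, DESeq and hg38. By the study's methods these served to align, to count reads per gene (strict intersection, without use of strand) and to scale the counts. The deposited tables hold the mean signal of each group, which is the authors' mean of scaled counts over 3 libraries, and no value per library. The deposited tables also hold fold change, log2 fold change, p-value and adjusted p columns of the authors' own comparisons, which were not used.

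A group's mean adds up whole reads from 3 libraries, each weighted by a step that is fixed for its library. The steps and whole reads were solved from the means (Python 3.11.15, numpy 2.4.6), giving 15655 of 15664 genes above 0 in TNFα and 15727 of 15733 in TSZ+Nec-1s. Size factors recomputed from the solved reads differed from the steps by a relative 0.000749 at most. Solved libraries carry no replicate number. limma 3.58.1 in R 4.3.3 was run with precision weights on log2(normalized reads + 0.5) over all 12 libraries for genes averaging 10 or more normalized reads across the TNFα and TSZ+Nec-1s groups, with two-sided p-values and Benjamini-Hochberg adjustment at a threshold of 0.05. The limma step and the solving step were tested on simulated data. A count model was not run because the deposited values are means and not raw counts. The limma fit and its weights used the whole reads solved from those means.

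Transcript GC content and coordinates came from a GRCh38 annotation, in which 23161 of 26485 symbols matched directly, 1384 by an older symbol and 1940 not. Promoters came from RefSeq GRCh38.p14. Members and gene lists were chosen with earlier results of these data known, so no list was tested. Genes were named by rule: the 20 largest rises and falls among called genes averaging 50 or more reads without overlap between libraries; in each list the called members and the 4 of smallest adjusted p; targets of the agents, among them BIRC2, BIRC3, XIAP, RIPK1 and CASP8; and CXCL8, CXCL1, CXCL2, CCL20, CSF1, CSF2 and TNF. Some genes the rule names are not reported here. Any other gene named was chosen after its values were seen. Alternatives were other scalings, filters, weights, pseudocount, library sets and removal of the GC trend.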

Additional observations from a re-analysis of the deposited data

How the results depend on the processing

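Against 127 higher and 28 lower genes, the 6 libraries of both groups alone gave 1999 higher and 1157 lower, removal of the GC trend 296 and 201, and scaling to total reads 128 and 62. Without a filter on low values 14 genes were lower, and with an intensity trend in place of weights 17. Leaving out 1 library at a time left 47 to 62 higher and 2 to 4 lower genes. Of these, 47 and 3 were without TNFα library b. Chosen after seeing the data, GC removal within groups gave 1745 and 908, and the 6 libraries with GC removed 824 and 1141. There the share of higher calls was 41.9%, against 81.9%. The cause of these shifts was not tested. The 40 genes of largest change kept their direction under every alternative run, and 16 of them kept their call without each library in turn. GC removal moved 7 of 38 list medians by more than the spread between libraries, among them caspases and necroptosis (0.00 to -0.13). No paired analysis was possible because the deposited columns carry no replicate number. Depth limits genes of few reads: VCAM1 rested on 2 reads and CCL22 on 18 in the TNFα group.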
